A study of Mus musculus with 4 samples.

Results

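Goblet cells fill the intestinal lumen with mucus, and 8 genes of that product were followed here through single cells of mouse small intestinal adenomas. They are Muc2, Fcgbp, Zg16, Clca1, Tff3, Spink4, Agr2 and Muc13, chosen by name, and all 8 were found among the 27514 genes that the 4 libraries' gene tables share. The study compared adenomas of ApcMin mice (ApcMin/+;Lef1 +/+) with adenomas of VApcMinL mice (ApcMin/+;Lef1 fl/fl; Villin-Cre), all C57BL/6, labelled male and 11 weeks old, with no drug or other treatment in the labels. All mice carried the ApcMin/+ allele, the Villin-driven Cre of the VApcMinL group acts in the intestinal epithelium, several tumors were pooled per library, and the cells were not sorted. There were 2 libraries per genotype, and replicate 1 of both genotypes was made with reagent kit 2 and replicate 2 of both with kit 3. Sets of 4 values below follow the order ApcMin 1, VApcMinL 1, ApcMin 2 and VApcMinL 2, and these names stand for the libraries so labelled. No source used here says how many mice gave the tumors of a library, so p-values measure the spread between these libraries.

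Cells were assigned to classes by marker genes that include none of the 8, and a class is named below by its gate. Of 11297 barcodes with at least 2000 unique molecular identifiers (UMIs, the counted RNA molecules) and at most 20% mitochondrial UMIs, 2760 were adenoma-gated (Wnt target genes such as Notum and Nkd1), 324 crypt-gated (stem and progenitor genes without the adenoma genes), 3053 enterocyte-gated, 94 Paneth-gated, 67 enteroendocrine-gated and 224 goblet-gated. Another 1332 were immune-gated. The libraries held between 44660305 and 128247396 UMIs in all. Levels are given as CPM, the UMIs of a gene for each 1000000 UMIs in the summed cells of a class. Lef1 in adenoma-gated cells stood at 11.2, 32.2, 41.2 and 26.6 CPM, so that in kit 2 the library labelled VApcMinL had the higher level, although its label gives Lef1 fl/fl with Villin-Cre. Whether the Lef1 UMIs came from deleted or intact copies of the gene was not tested. Xist, which female cells express, stood at 0, 1203, 0.0843 and 329 CPM in the same cells although all mice were labelled male. It was thus found in both libraries labelled VApcMinL and hardly in those labelled ApcMin, so sex and genotype cannot be told apart here. Between the libraries of kit 2, 11 barcodes were shared, between those of kit 3, 4, and between ApcMin 1 and VApcMinL 2, 1. Crypt-gated cells of kit 2 were low in the stem cell marker Olfm4, at 21.2 and 5.86 CPM against 963 and 1255 in kit 3, so the crypt-gated cells of the 2 kits differed in it. Notum stood between 109.6 and 476 CPM in adenoma-gated and between 0.531 and 3.43 in crypt-gated cells. Lyz1 stood between 4197 and 17352 in Paneth-gated cells. Notum is a marker of the adenoma gate, the crypt gate limits adenoma markers, and Lyz1 is a marker of the Paneth gate. These values thus follow from the gates and do not test them.

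Muc2 is the gel-forming mucin of the intestine. It is folded, joined into polymers and glycosylated in the secretory pathway, packed into granules and expanded on release. Fcgbp, Zg16 and Clca1 are proteins of the secreted mucus: Fcgbp is a large protein found with Muc2, Zg16 is a lectin-like protein that binds Gram-positive bacteria, and Clca1 is a secreted metalloprotease. Tff3 is the trefoil peptide of goblet cells and Spink4 a small peptide of the Kazal-type protease inhibitor family. Agr2 is a disulfide isomerase of the endoplasmic reticulum that Muc2 production requires, and Muc13 is a mucin anchored in the apical membrane. Goblet cells arise from secretory progenitors that express Atoh1, while Notch and Wnt signalling hold crypt cells in the undifferentiated state.

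Of the 8 genes, 3 lie on chromosome 7 of GRCm38 and the others are on separate chromosomes. In the GENCODE vM21 annotation, Muc2 (ENSMUSG00000025515) spans chr7:141690340-141754693 on the plus strand, Fcgbp (ENSMUSG00000047730) spans chr7:28071236-28120862 on the plus strand and Zg16 (ENSMUSG00000049350) spans chr7:127050156-127087328 on the minus strand. Clca1 (ENSMUSG00000028255) spans chr3:145003817-145032776 on the minus strand, Tff3 (ENSMUSG00000024029) spans chr17:31125306-31129646 on the minus strand and Spink4 (ENSMUSG00000028415) spans chr4:40920052-40931395 on the plus strand. Agr2 (ENSMUSG00000020581) spans chr12:35992907-36004087 and Muc13 (ENSMUSG00000022824) spans chr16:33794037-33819934, both on the plus strand. None overlapped another gene on its own strand, and Zg16 and Muc13 overlapped genes on the opposite strand (Gm44939 and Gm22747, and Gm15657).

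RefSeq promoter windows (GRCm38.p6, from 250 bases before to 50 bases after the annotated start, written along the gene's strand) were at hand for Muc2, Fcgbp, Agr2 and Muc13. They are shown because these 4 genes took 3 different patterns across the cell classes: Muc2 and Fcgbp were highest in goblet-gated cells, Agr2 stayed high in adenoma-gated cells, and Muc13 overlapped between enterocyte-gated and goblet-gated cells. Capitals mark the matches to 5 short motifs searched on both strands: CAGCTG, an E-box form that Atoh1 can bind, CTTTGA of TCF and LEF factors, TTTATG of Cdx2, TGTTTA of Fox factors and GGATGT of Ets factors such as Spdef. On the opposite strand TTTATG reads CATAAA and GGATGT reads ACATCC.
Muc2 chr7:141690090-141690389: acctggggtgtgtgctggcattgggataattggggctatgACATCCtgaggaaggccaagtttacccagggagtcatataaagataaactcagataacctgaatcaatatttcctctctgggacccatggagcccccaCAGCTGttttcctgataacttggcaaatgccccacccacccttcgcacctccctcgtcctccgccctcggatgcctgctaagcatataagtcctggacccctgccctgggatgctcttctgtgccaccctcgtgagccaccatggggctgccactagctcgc
Fcgbp chr7:28070986-28071285: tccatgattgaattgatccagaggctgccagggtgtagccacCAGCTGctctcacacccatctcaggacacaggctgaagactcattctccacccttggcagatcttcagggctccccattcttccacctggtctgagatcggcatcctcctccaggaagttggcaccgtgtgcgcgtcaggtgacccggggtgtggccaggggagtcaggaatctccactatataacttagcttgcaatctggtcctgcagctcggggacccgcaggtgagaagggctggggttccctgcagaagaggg
Agr2 chr12:35992675-35992974: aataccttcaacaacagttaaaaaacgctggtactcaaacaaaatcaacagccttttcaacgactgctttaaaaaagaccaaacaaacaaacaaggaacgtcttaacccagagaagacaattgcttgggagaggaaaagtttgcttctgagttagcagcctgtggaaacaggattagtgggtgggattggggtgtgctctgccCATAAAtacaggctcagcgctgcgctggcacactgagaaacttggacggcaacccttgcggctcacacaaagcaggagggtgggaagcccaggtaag
Muc13 chr16:33793787-33794086: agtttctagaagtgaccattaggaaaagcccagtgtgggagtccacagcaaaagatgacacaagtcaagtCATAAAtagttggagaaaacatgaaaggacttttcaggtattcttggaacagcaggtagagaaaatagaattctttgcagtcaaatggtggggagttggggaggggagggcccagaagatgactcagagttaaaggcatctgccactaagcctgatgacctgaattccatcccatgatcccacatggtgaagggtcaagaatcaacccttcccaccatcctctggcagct
Muc13 chr16:33794239-33794538: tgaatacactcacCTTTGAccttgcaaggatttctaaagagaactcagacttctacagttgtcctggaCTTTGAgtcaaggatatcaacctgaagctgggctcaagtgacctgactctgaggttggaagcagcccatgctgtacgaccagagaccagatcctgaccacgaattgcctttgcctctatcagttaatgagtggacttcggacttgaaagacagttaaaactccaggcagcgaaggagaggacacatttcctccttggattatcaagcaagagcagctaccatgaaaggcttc
Muc2 and Fcgbp both held CAGCTG, at -112 to -107 and at -208 to -203 from the start, and 16.3% of the 32851 mouse promoter windows of this length held it. Muc2 also held GGATGT on the opposite strand at -210 to -205, a motif of 11.1% of windows. Agr2 held TTTATG on the opposite strand at -47 to -42, and the first Muc13 window held it at -180 to -175, against 11.9% of windows. The second Muc13 window, which starts inside the gene, held CTTTGA at -237 to -232 and at -182 to -177, against 16.0% of windows, and TGTTTA, in 13.4% of windows, was in none of the 5. No 2 matches overlapped, and a match is a stretch of letters and not a measured binding site.

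In goblet-gated cells the 8 genes together took up 18.8, 26.5, 30.6 and 17.3% of all UMIs, against 0.0967, 0.248, 0.114 and 0.106% in adenoma-gated cells. Levels on the CPM scale compare classes within a gene. Muc2 stood at 5982, 10824, 21604 and 11115 CPM in goblet-gated cells. In Paneth-gated cells it stood at 941, 115, 1672 and 503, in crypt-gated cells at 156, 222, 196 and 280.4 and in enterocyte-gated cells at 149, 97.5, 53.3 and 65.0. Adenoma-gated cells had the lowest Muc2 of the 6 classes by the median over libraries, at 13.2, 49.8, 22.9 and 24.4. Goblet-gated libraries were thus all above those of any other class, and crypt-gated all above enterocyte-gated ones, while the levels of neighbouring classes otherwise overlapped. In enteroendocrine-gated cells, where VApcMinL 1 held fewer than 10 cells and was left out, Muc2 stood at 715, 67.7 and 15.8 in ApcMin 1, ApcMin 2 and VApcMinL 2, and at 12.8, 71.2 and 16.9 without the leading cell of each, the one with the most UMIs of the 8 genes.

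The mucus proteins Fcgbp, Zg16 and Clca1 followed the same order at its top. Fcgbp stood at 13009, 17061, 39226 and 16041 CPM in goblet-gated, 98.7, 102, 109 and 127 in crypt-gated and 20.9, 60.2, 28.4 and 51.0 in adenoma-gated cells. Its adenoma-gated libraries were all below the crypt-gated ones. Zg16, the member with the largest single value, stood at 25807, 69977, 125646 and 68099 in goblet-gated, 621, 502, 130.3 and 284 in enterocyte-gated, 77.5, 341, 219 and 913 in crypt-gated and 30.8, 184, 62.1 and 137 in adenoma-gated cells. Outside the goblet gate the libraries of Zg16 overlapped between neighbouring classes. Clca1 was low elsewhere: it stood at 1263, 3028, 9801 and 2019.9 in goblet-gated cells and at 0.721, 9.99, 3.88 and 7.89 in adenoma-gated, 3.71, 6.70, 9.39 and 10.7 in crypt-gated and 2.42, 3.20, 12.2 and 11.2 in Paneth-gated cells. The Paneth-gated values of Clca1 rest on 1, 1, 9 and 17 UMIs. No Clca1 UMI was counted in enteroendocrine-gated cells of ApcMin 2, which allows up to 22.6 CPM at 3 counts.

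Outside the goblet gate, Tff3 had its highest median over libraries in enteroendocrine-gated cells and Spink4 in Paneth-gated cells. Tff3 stood at 70880.5, 86284, 69784 and 31148 CPM in goblet-gated cells and at 6874, 4002 and 662 in enteroendocrine-gated cells of ApcMin 1, ApcMin 2 and VApcMinL 2. Without the leading cell, which held 78.8% of the UMIs of the 8 genes in ApcMin 1, enteroendocrine-gated Tff3 stood at 1475, 2144 and 519.8. In crypt-gated cells it stood at 1102, 1529.6, 265 and 489 and in adenoma-gated cells at 105, 226, 42.0 and 55.3. Tff3 was higher in both kit 2 libraries than in both kit 3 libraries of crypt-, enterocyte- and adenoma-gated cells. Spink4 stood at 51455, 63232, 26725 and 27625 in goblet-gated and 26858, 5215, 4994 and 5591 in Paneth-gated cells, which overlapped through ApcMin 1. That overlap rested on 1 cell of ApcMin 1 with 5518 Spink4 UMIs. Without the leading cells Paneth-gated Spink4 stood at 16578, 793, 2318 and 4210.3 and goblet-gated Spink4 at 49116, 61945, 24384 and 26951, with no overlap. Spink4 stood at 2038, 1749.8, 328 and 639 in crypt-gated and 127, 142, 25.9 and 38.1 in adenoma-gated cells.

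Agr2 and Muc13 departed from the secreted proteins in opposite ways. Agr2 stood at 18561, 13866, 11674 and 16615 CPM in goblet-gated, 812, 780.3, 1082 and 1558 in crypt-gated and 596, 1758, 920.3 and 679.9 in adenoma-gated cells, and only at 87.1, 74.4, 88.2 and 105 in enterocyte-gated cells. Every adenoma-gated library was above every enterocyte-gated one, and the adenoma-gated range overlapped the crypt-gated range. Muc13 stood at 958, 1122, 899 and 619 in enterocyte-gated and 598, 722, 1076 and 665 in goblet-gated cells, which overlapped. It stood at 370.4, 267, 309 and 264 in crypt-gated and 73.9, 47.7, 37.7 and 71.3 in adenoma-gated cells, and no adenoma-gated library reached the lowest crypt-gated one.

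**Figure D1:**
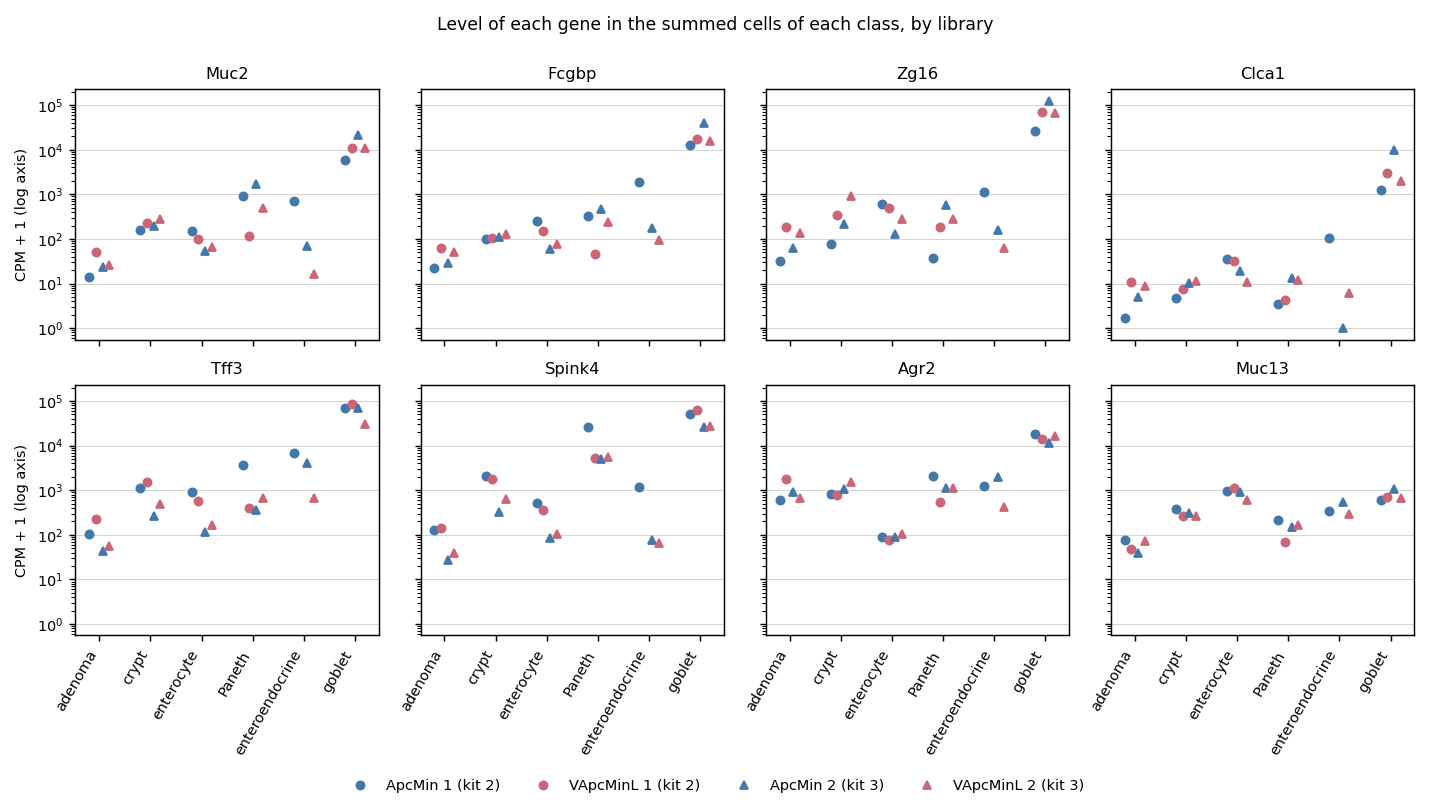
CPM of each gene (vertical log axis, 1 added) in the summed cells of 6 gated classes, with 1 point per library of at least 10 cells of the class. Goblet-gated points lie above all others for Muc2, Fcgbp, Zg16, Clca1, Tff3 and Agr2, Spink4 overlaps Paneth-gated cells through ApcMin 1, Muc13 overlaps enterocyte-gated cells, and Agr2 stays between 596 and 1758 in adenoma-gated cells.

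Single cells carried much of the level in the classes with low values. In crypt-gated cells, the cell with the most UMIs of the 8 genes held 26.8, 67.1, 45.8 and 51.7% of all their UMIs. For Zg16 the highest crypt-gated cell held 52.7, 58.5, 77.3 and 88.6% of its UMIs, and for Muc2 it held 27.9, 87.5, 48.5 and 80.1%. Without the leading cell of each library, crypt-gated Muc2 stood at 115, 28.6, 104 and 57.1 CPM, Zg16 at 37.5, 147, 51.3 and 107 and Spink4 at 1465, 186, 126 and 288. The leading crypt-gated cell of VApcMinL 2 held 5800 UMIs of the 8 genes among 62774 and was called a doublet by Scrublet. Agr2 and Muc13 depended less on it, at 711, 741, 683 and 975 and 371, 269.9, 304 and 261 without the leading cell. The differences between classes below are therefore given with all cells and without the leading cell of each class and library.

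The first comparison asked how each class differed from crypt-gated cells of the same libraries. All 8 genes were higher in goblet-gated cells by edgeR's quasi-likelihood test with the library as a block and p-values adjusted over all genes, where 21.1% of 9374 genes were higher and 19.6% lower. Log2 fold changes were 6.11 (SE 0.30, adjusted p = 2.58e-09) for Muc2, 7.84 (SE 0.33, adjusted p = 5.94e-10) for Fcgbp and 8.24 (SE 0.48, adjusted p = 1.15e-08) for Zg16. The largest was that of Clca1, at 9.13 (SE 0.38, adjusted p = 5.94e-10). Tff3 was higher by 6.80 (SE 0.40, adjusted p = 1.34e-08), Spink4 by 5.77 (SE 0.31, adjusted p = 5.61e-09) and Agr2 by 4.25 (SE 0.23, adjusted p = 5.61e-09), and Muc13 differed least, at 1.70 (SE 0.19, adjusted p = 9.98e-06). The median of the 8 was 6.45 against -0.04 over all genes tested. Without the leading cell, the log2 fold changes ran from 1.71 for Muc13 to 9.94 for Zg16, and every member was called under every alternative tried. Single libraries moved the largest of them: Clca1 was 8.40 without ApcMin 2 and 9.76 without VApcMinL 2, and Zg16 was 8.83 without VApcMinL 2.

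Paneth-gated cells, the antimicrobial secretory cells of the crypt base, were higher than crypt-gated cells in 3 of the 8 genes and lower in none, against 12.6% higher and 10.3% lower among 9404 genes. Spink4 was higher by a log2 fold change of 3.50 (SE 0.36, adjusted p = 2.38e-05) in edgeR, Muc2 by 1.95 (SE 0.53, adjusted p = 0.0189) and Fcgbp by 1.54 (SE 0.38, adjusted p = 0.0112). Without the leading cells the differences were 3.72 (adjusted p = 4.89e-05), 3.19 (adjusted p = 0.000242) and 2.43 (adjusted p = 0.00834) in edgeR. The Muc2 and Fcgbp calls were lost without either ApcMin library. Without ApcMin 1, edgeR gave Muc2 1.40 (adjusted p = 0.119) and Fcgbp 1.21 (adjusted p = 0.0744), and without ApcMin 2 it gave 1.36 (adjusted p = 0.145) and 1.19 (adjusted p = 0.101). Without VApcMinL 1 Muc2 was 2.65 (adjusted p = 0.00061) in edgeR. DESeq2 called neither, with adjusted p = 0.135 for Muc2 and 0.212 for Fcgbp. Tff3 at 0.65 (SE 0.47, adjusted p = 0.354) and Zg16 at -0.21 (SE 0.40, adjusted p = 0.746) did not pass, but without the leading cells edgeR gave Tff3 1.40 (adjusted p = 0.00862) and Zg16 1.77 (adjusted p = 0.0308). Single libraries moved these too: without VApcMinL 1 Tff3 passed, at 1.36 (adjusted p = 0.00656), and without ApcMin 2 Zg16 was lower, at -0.99 (adjusted p = 0.0108). Agr2 at 0.47 did not pass, and passed with thinned cells, at 0.82 (adjusted p = 0.0343), and with no low-count filter, at 0.38 (adjusted p = 0.0284). Clca1 at 0.33 did not pass, and Muc13 at -0.64 (adjusted p = 0.0529) passed only without ApcMin 1, at -0.84 (adjusted p = 0.0307), and with no low-count filter, at -0.72 (adjusted p = 0.000147).

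In enterocyte-gated cells, the absorptive class, 2 members were higher and 4 lower than in crypt-gated cells, among 10854 genes of which 35.9% were higher and 34.1% lower. Muc13 was higher by a log2 fold change of 1.95 (SE 0.16, adjusted p = 1.04e-06) and Agr2 lower, at -3.13 (SE 0.14, adjusted p = 1.04e-08), both in edgeR and both nearly as large without the leading cells. Clca1 was higher, at 1.75 (SE 0.38, adjusted p = 0.00143). Spink4 at -1.81 (SE 0.14, adjusted p = 7.37e-07), Muc2 at -0.93 (SE 0.25, adjusted p = 0.00614) and Tff3 at -0.72 (SE 0.17, adjusted p = 0.00311) were lower with all cells, but not without the leading cells, at -0.56 (adjusted p = 0.113), 0.14 (adjusted p = 0.717) and -0.0084 (adjusted p = 0.981). Fcgbp at 0.44 (SE 0.30, adjusted p = 0.203) and Zg16 at 0.56 (SE 0.55, adjusted p = 0.378) did not pass with all cells and were higher without the leading cells, at 1.32 (adjusted p = 0.00902) and 1.76 (adjusted p = 0.000939). Zg16 also passed in edgeR without VApcMinL 2, at 1.24 (adjusted p = 0.0316), and Fcgbp without ApcMin 2, at 0.74 (adjusted p = 0.0481), and without VApcMinL 2, at 0.73 (adjusted p = 0.0424). Near-empty droplets, which carry free RNA, held every member but Muc13 at a higher CPM than enterocyte-gated cells in every library. Clca1, called higher above, stood at 58.8, 102, 77.4 and 32.9 in near-empty droplets and at 34.6, 31.0, 18.2 and 9.89 in enterocyte-gated cells, and the part of free RNA in these differences was not tested.

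In enteroendocrine-gated cells, the hormone-producing class, Tff3 was higher than in crypt-gated cells, at 2.07 (SE 0.60, adjusted p = 0.00526), and Spink4 lower, at -2.32 (SE 0.51, adjusted p = 0.000168), by edgeR over 3 libraries, where 11.3% of 9511 genes were higher and 14.1% lower. Without ApcMin 1 the Tff3 difference was 1.93 (adjusted p = 0.236) in edgeR, and without ApcMin 2 it was 1.30 (adjusted p = 0.253). Without VApcMinL 2 it was 3.04 (adjusted p = 1.07e-09), and Spink4 was -3.05 (adjusted p = 0.000516) without ApcMin 1 and -1.54 (adjusted p = 0.00114) without VApcMinL 2. Muc2 at -1.21, Zg16 at -0.49, Fcgbp at 1.16, Clca1 at 1.05, Agr2 at -0.38 and Muc13 at 0.017 did not pass with all 3 libraries. Without the leading cells edgeR gave Tff3 1.59 (adjusted p = 0.0483), Spink4 -2.54 (adjusted p = 0.000663) and Muc2 -1.73 (adjusted p = 0.0103), and of the others the 4 tested did not pass. With 2 libraries left, edgeR called Muc2 lower without ApcMin 1, at -3.08 (adjusted p = 0.000142), and Fcgbp higher without ApcMin 2, at 1.74 (adjusted p = 0.0288). Zg16 changed its direction, from -2.45 (adjusted p = 0.0187) without ApcMin 1 to 1.62 (adjusted p = 0.000809) without VApcMinL 2, and Fcgbp was called without VApcMinL 2 too, at 2.38 (adjusted p = 2.03e-07).

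Adenoma-gated cells were lower than crypt-gated cells in 6 of the 8 genes and higher in none, against 18.0% lower and 23.5% higher among 12139 genes. The log2 fold changes in edgeR were -3.95 (SE 0.11, adjusted p = 8.14e-08) for Spink4, -3.19 (SE 0.21, adjusted p = 6.05e-06) for Muc2, -3.10 (SE 0.13, adjusted p = 4.88e-07) for Tff3 and -2.53 (SE 0.17, adjusted p = 6.33e-06) for Muc13. Zg16 was lower at -1.83 (SE 0.25, adjusted p = 0.000329) and Fcgbp at -1.66 (SE 0.21, adjusted p = 0.000229). Without the leading cells Zg16 no longer passed, at -0.53 (adjusted p = 0.0547), and the differences of Spink4 at -2.63, Muc2 at -2.04, Tff3 at -2.28 and Fcgbp at -0.93 (adjusted p = 0.0455) were smaller and passed, while Muc13 kept its size at -2.54. More than the leading cell carried the crypt-gated levels. The 10% of crypt-gated cells with most Muc2, between 6 and 12 cells, held 94.9, 92.8, 94.0 and 96.9% of its UMIs. For Spink4 such cells held 92.1, 93.0, 85.1 and 93.3%, and for Muc13 27.9, 22.3, 27.6 and 36.3%. The differences without these cells were not tested. After thinning, Muc2 was detected in 11.0, 8.33, 5.36 and 4.27% of crypt-gated cells. Clca1 did not pass, at -0.76 (SE 0.37, adjusted p = 0.127), and passed with Scrublet's doublets removed, at -1.46 (adjusted p = 0.0099). Near-empty droplets also held Fcgbp and Clca1 at a higher CPM than crypt-gated cells in every library. They held Muc2, Zg16, Tff3 and Spink4 higher in every library but VApcMinL 2, and Muc13 and Agr2 higher in VApcMinL 1 only. The part of free RNA in the crypt-gated levels was not tested.

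Agr2 was the member whose adenoma-gated level was nearest to that of crypt-gated cells, with a log2 fold change of -0.30 (SE 0.29, adjusted p = 0.429) in edgeR and 0.074 without the leading cells. Without VApcMinL 1 it was lower, at -0.73 (adjusted p = 0.0163) in edgeR, and with every gate threshold doubled, at -0.83 (adjusted p = 0.00884). The median of the 8 genes was -2.18 against 0.06 over all genes tested. Library by library, the log2 difference of Agr2 was -0.57, 1.04, -0.35 and -1.27, so that the 2 libraries of kit 2 lay on opposite sides of 0, while that of Muc2 was -3.66, -2.28, -3.21 and -3.58 and that of Muc13 -2.44, -2.61, -3.15 and -1.95. Olfm4 differed between the kits in crypt-gated cells, as given above, and its part in these differences was not tested.

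**Figure D2:**
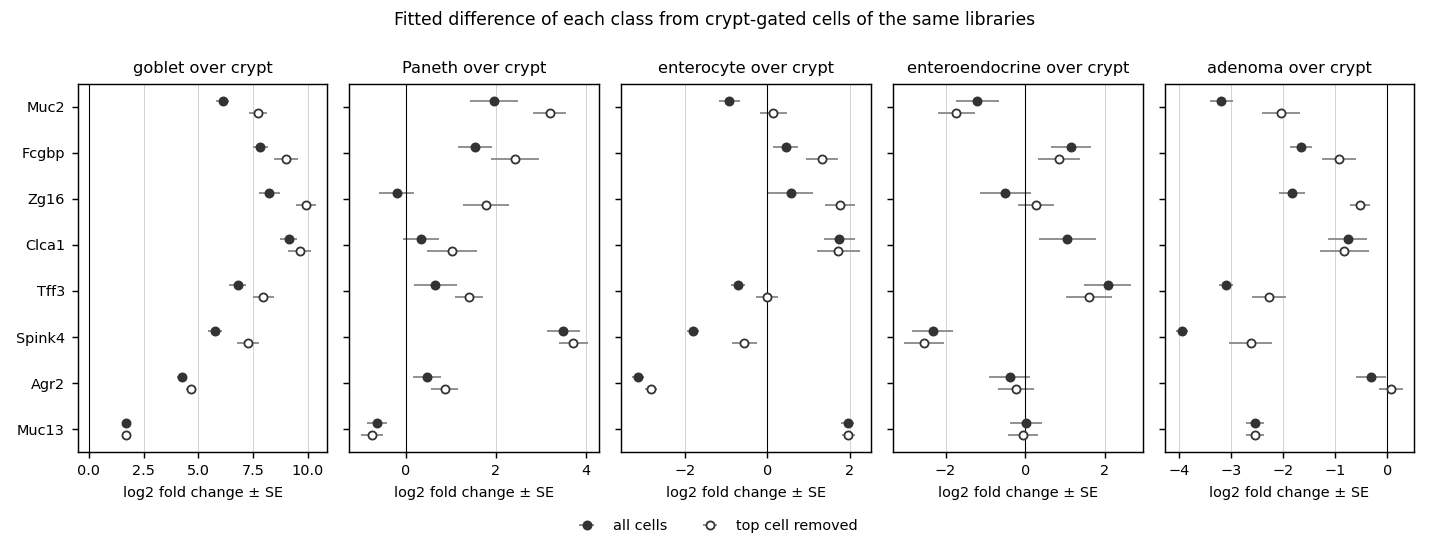
Log2 fold change of each class over crypt-gated cells (horizontal axis, bars are the standard error of the edgeR fit) for the 8 genes, with all cells (filled) and without the leading cell of each class and library (open). All 8 lie right of 0 in goblet-gated cells, Agr2 lies near 0 in adenoma-gated cells, and the open points of the secreted proteins lie right of the filled ones in most classes.

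The second question was how much of the low level in adenoma-gated cells stood above the free RNA of the suspension. Near-empty droplets of 10 to 100 UMIs held Agr2 at 514, 860.1, 369.9 and 266 CPM, below the adenoma-gated level in every library. For the other 7 genes the near-empty droplets were higher than adenoma-gated cells in all 4 libraries. Muc2 stood at 307, 301, 264 and 157 and Zg16 at 1381, 3256, 1182 and 659 in near-empty droplets. Tff3 there stood at 2699, 4968, 687 and 330, so it was also higher in kit 2 than in kit 3, as in the cells.

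Immune-gated cells, which should not make mucus, were the second measure of that background, at matched depth. The median immune-gated cell held 4798, 3811, 4958.5 and 3891 UMIs and the median adenoma-gated cell 21098, 17806, 31871 and 25024, so every cell was thinned to 2000 UMIs. After thinning, Agr2 was detected in 43.2, 55.8, 42.7 and 46.1% of adenoma-gated cells and in 14.0, 15.7, 6.16 and 13.9% of immune-gated cells, and the exact 95% intervals were apart in every library. The lowest adenoma-gated interval ran from 37.1 to 48.4% in ApcMin 2. Zg16 was detected in 6.34, 19.8, 14.2 and 9.03% of adenoma-gated and 14.0, 34.9, 36.3 and 24.6% of immune-gated cells, and Tff3 in 13.8, 25.7, 12.0 and 5.83% and 37.5, 42.6, 34.2 and 17.5%. Both were below the immune-gated share with intervals apart in all 4 libraries, and Spink4 was in 3. Muc2 was detected in 3.75, 3.34, 4.85 and 2.95% of adenoma-gated and 6.14, 7.14, 11.6 and 9.52% of immune-gated cells. Muc13 was detected in 10.4, 8.45, 5.83 and 12.1% and 9.82, 6.59, 6.85 and 6.35%, above in 3 libraries and with intervals apart in 1. For Fcgbp, at 3.17, 6.29, 5.50 and 4.95% and 7.19, 9.62, 8.22 and 6.35%, and Clca1, at 0.288, 1.77, 0.971 and 0.815% and 1.23, 1.10, 2.05 and 0.397%, all intervals overlapped. Before thinning, Agr2 held 14.3, 37.0, 35.3 and 20.04 UMIs per adenoma-gated cell and 0.404, 0.404, 0.281 and 0.389 per immune-gated cell. Per cell, the other genes were also higher in adenoma-gated cells before thinning, in every library except for Clca1 in ApcMin 1. Tff3 held 2.52, 4.75, 1.61 and 1.63 against 1.24, 1.503, 0.877 and 0.361, Zg16 0.738, 3.86, 2.39 and 4.03 against 0.414, 1.11, 1.18 and 0.484, Fcgbp 0.501, 1.27, 1.09 and 1.502 against 0.218, 0.245, 0.384 and 0.143 and Muc2 0.317, 1.05, 0.880 and 0.720 against 0.165, 0.187, 0.342 and 0.147. Thinning matched the depth and not the share of free RNA in a cell, which was not measured, so the shares set no limit on expression of these genes in adenoma-gated cells. Intervals cover counting error only.

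**Figure D3:**
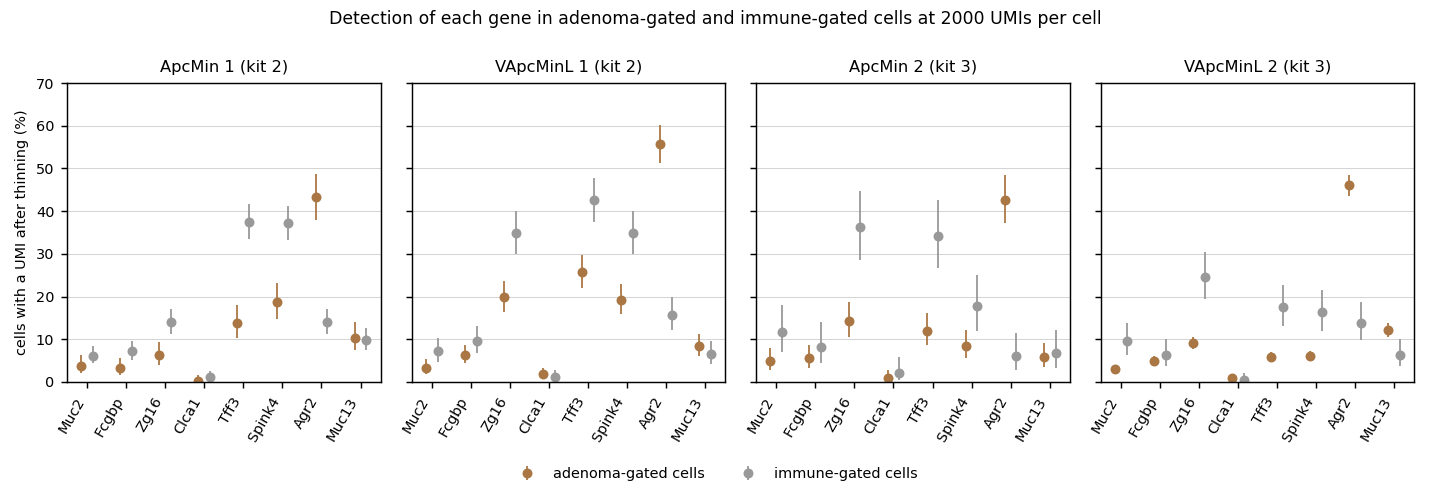
Share of cells with a UMI of each gene after thinning to 2000 UMIs (vertical axis, %) in adenoma-gated and immune-gated cells of each library, with exact 95% intervals. Agr2 lies between 42.7 and 55.8% in adenoma-gated cells and between 6.16 and 15.7% in immune-gated cells, while Zg16 and Tff3 lie lower in adenoma-gated than in immune-gated cells in all 4 libraries.

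Goblet-gated cells held the genes together, and adenoma-gated cells did so rarely. After thinning, at least 4 of the 8 genes were detected in 100, 97.8, 100 and 97.7% of goblet-gated cells and in 0.576, 2.36, 0.971 and 0.940% of adenoma-gated cells. The adenoma-gated shares are 2, 12, 3 and 15 cells, with exact 95% intervals of 0.0699 to 2.07%, 1.22 to 4.08%, 0.201 to 2.81% and 0.527 to 1.55%. Immune-gated cells reached 2.28, 4.40, 4.79 and 1.59%, with intervals of 1.22 to 3.87%, 2.53 to 7.04%, 1.95 to 9.63% and 0.434 to 4.01%. The adenoma-gated share was below the immune-gated one in every library, but their intervals overlapped in each. Without thinning the adenoma-gated shares were 72.3, 83.9, 74.8 and 58.4% and the immune-gated shares 24.2, 29.1, 26.7 and 6.75%. Paneth-gated cells gave 33.3, 11.8, 15.8 and 23.9%, crypt-gated cells 9.89, 8.33, 7.14 and 5.13%, enterocyte-gated cells 4.67, 9.06, 5.22 and 3.25% and enteroendocrine-gated cells 25.0, 20 and 21.2% in the 3 libraries with enough of them. Paneth-, crypt- and enterocyte-gated shares were above the immune-gated ones in all 4 libraries, and enteroendocrine-gated shares in their 3 libraries. The Paneth-gated shares rest on 4, 2, 3 and 11 cells. Exact 95% intervals were apart from the immune-gated ones for Paneth- and enteroendocrine-gated cells in ApcMin 1 and VApcMinL 2 only. For crypt-gated cells they were apart in ApcMin 1 only, and for enterocyte-gated cells in VApcMinL 1 only.

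All 8 genes were detected together in 27.3, 52.2, 72.9 and 43.0% of goblet-gated cells, which are 6, 24, 51 and 37 cells. No adenoma-gated cell held all 8 after thinning, which allows shares of up to 0.865, 0.589, 0.971 and 0.188%. At the other end, at least 1 of the 8 was detected in 68.0, 84.3, 65.0 and 63.6% of adenoma-gated cells. Among pairs in goblet-gated cells, Tff3 and Spink4 were detected together in a median of 98.2% of cells over the 4 libraries, and Muc2 and Tff3 in 96.6%. Pairs with Clca1 were the least frequent, from 52.1% with Muc13 to 61.7%. Clca1 itself was detected in 40.9, 67.4, 90.0 and 58.1% of goblet-gated cells and Muc13 in 72.7, 80.4, 92.9 and 70.9%, the 2 lowest shares of the 8 genes in each of 3 libraries.

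The share of adenoma-gated cells with at least 4 members averaged 0.774% in the libraries labelled ApcMin and 1.65% in those labelled VApcMinL. The difference of 0.875 percentage points gave p = 0.667 in a two-sided exact permutation test over the 6 arrangements of the libraries, and the smallest p that 2 against 2 libraries allow is 0.333. Within kit 2 the difference was 1.78 points and within kit 3 it was -0.0304 points, so the difference lay in kit 2. Without the library VApcMinL 1 it was 0.167 points, and without VApcMinL 2 it was 1.58 points.

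**Figure D4:**
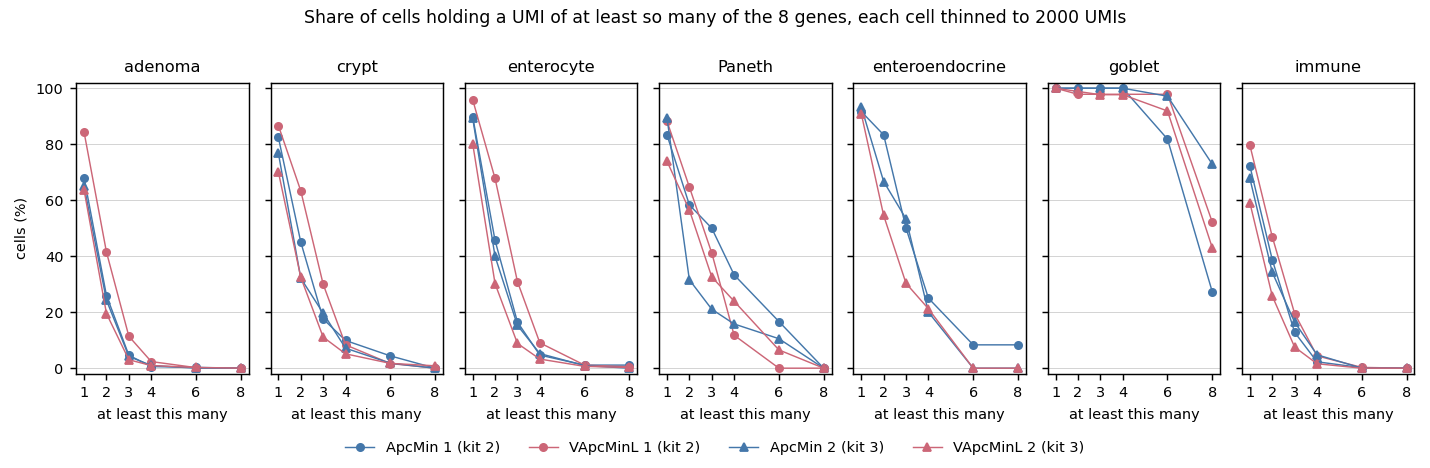
Share of cells (vertical axis, %) in which at least 1, 2, 3, 4, 6 or 8 of the 8 genes (horizontal axis) had a UMI after thinning to 2000 UMIs, by class and library. At 4 genes goblet-gated cells lie between 97.7 and 100%, immune-gated cells between 1.59 and 4.79%, and adenoma-gated cells between 0.576 and 2.36%.

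The third comparison, between libraries labelled VApcMinL and ApcMin, addressed the loss of Lef1. Its direction rests on the labels, and Lef1 RNA was higher in the VApcMinL library of kit 2. Xist was found in both VApcMinL libraries and hardly in the ApcMin ones, so the genotype cannot be told apart from sex in this comparison. In adenoma-gated cells edgeR with the kit as a block called 0 of 12681 genes (0%), with 30 at an unadjusted p under 0.05 and 5 called by DESeq2. Among the 8 genes, Zg16 had stood at 30.8, 184, 62.1 and 137 CPM. The fitted log2 differences were 1.85 (SE 0.41) for Zg16, 2.23 (SE 0.81) for Clca1, 1.18 (SE 0.23) for Fcgbp and 0.98 (SE 0.50) for Muc2. None passed in edgeR, each with an adjusted p of 1, and DESeq2 called Zg16 with an adjusted p of 0.0123. Without the leading cell of each library the difference of Zg16 was 0.76, and Fcgbp stood at 20.1, 31.6, 28.5 and 32.5 CPM. Agr2 with all cells was 1.48 in kit 2 and -0.36 in kit 3, on the log2 scale. With all cells, the median log2 difference of the 8 genes was 0.87 against 0.01 over all genes. The leading cells of VApcMinL 1 and VApcMinL 2 held 9.18 and 13.3% of the UMIs of the 8 genes. Scrublet called both doublets, and neither leading cell of the ApcMin libraries. Without the leading cells, Zg16 stood at 29.9, 117, 62.0 and 46.2 CPM. In kit 3, Muc2, Zg16, Clca1 and Tff3 were then lower in VApcMinL, and Agr2 stayed lower. Fcgbp, Spink4 and Muc13 stayed higher there.

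In crypt-gated cells edgeR called 64 of 9608 genes (0.666%), 2 of them members. Zg16 had stood at 77.5, 341, 219 and 913 CPM and was higher in the VApcMinL libraries by 2.07 (SE 0.18, adjusted p = 1.13e-26) on the log2 scale, with 2.05 in kit 2 and 2.06 in kit 3. Tff3 was higher by 0.64 (SE 0.17, adjusted p = 0.0304), although ApcMin 1 stood above VApcMinL 2. Zg16 was called in 6 of 9 alternatives. With Scrublet's doublets removed it was 0.46 (adjusted p = 1) in edgeR, and without the leading cells 1.44 (adjusted p = 0.0312). With a mitochondrial limit of 10% it was 3.20 (adjusted p = 1.78e-06). With no replicate block edgeR called 0 genes in crypt-gated cells, with Zg16 at 2.06 (adjusted p = 1) and Tff3 at 0.49 (adjusted p = 1). Tff3 was called in 3 of 9 alternatives and stood at -0.0086 without the leading cells. The fits of 4 libraries with a kit block left 1 residual degree of freedom, so these small standard errors lean on the spread pooled over genes. The other 6 members ranged from -0.38 for Muc13 to 0.48 for Muc2 and did not pass. The genotype difference itself was not shown to differ between adenoma- and crypt-gated cells: for the interaction edgeR called 0 of 12139 genes (0%), with 0.464 as its smallest adjusted p and 312 genes under 0.05 before adjustment, and no other tool was run on it. All 8 members had an adjusted p of 1 there. Without VApcMinL 1 edgeR called 133 genes for the interaction.

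No member was called by genotype in goblet-, enterocyte- or Paneth-gated cells, where edgeR called 0.100% of 6968, 0.00873% of 11452 and 0.0535% of 5605 genes. In goblet-gated cells the kits differed in direction for all 8 genes. Muc2 was 0.96 in kit 2 and -1.14 in kit 3 on the log2 scale, Clca1 was 1.36 in kit 2 and -2.46 in kit 3, and Agr2 was -0.32 in kit 2 and 0.33 in kit 3. In Paneth-gated cells Muc2 was lower in the VApcMinL library of both kits, -3.83 in kit 2 and -1.74 in kit 3, but did not pass in edgeR, at -2.75 (SE 0.53, adjusted p = 0.35), and Fcgbp at -2.14 (SE 0.56, adjusted p = 0.981) did not pass either. Clca1 had too few UMIs there to be tested, so 7 of the 8 were. Enteroendocrine-gated cells had 3 libraries, which left no residual degree of freedom with the kit block. With no replicate block, where the lone VApcMinL library is assumed to vary like the 2 ApcMin ones, edgeR called 22 of 2906 genes (0.757%) there. Muc2 was the member among them, at -4.74 (adjusted p = 0.00502), and 61 of its UMIs in ApcMin 1 lay in the leading cell, without which it stood at 12.8 CPM. Of the 3 libraries 1 is of kit 2, so kit and genotype are partly confounded in that fit.

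**Figure D5:**
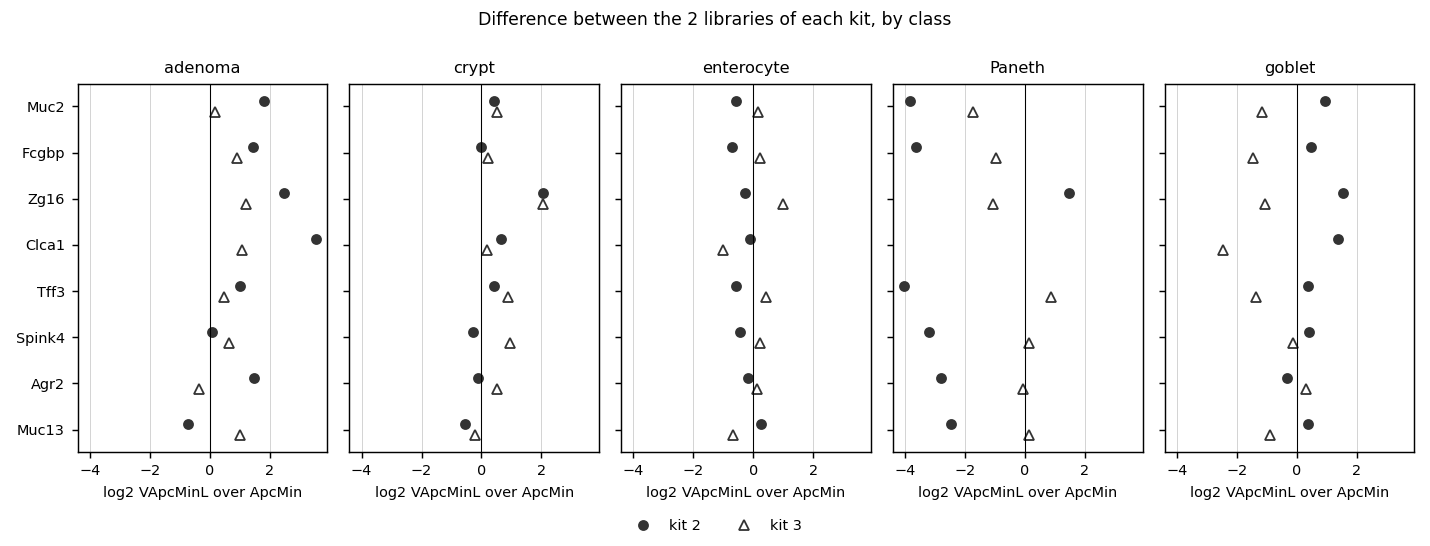
Log2 difference of VApcMinL over ApcMin (horizontal axis) for each gene within kit 2 (filled circles) and kit 3 (open triangles), by class, from library sums without replication within a kit. Zg16 lies right of 0 in both kits in adenoma- and crypt-gated cells, and in goblet-gated cells all 8 genes lie on opposite sides of 0 in the kits.

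Other genes of mucus production were read from 4 lists. Of the transcription factors of goblet cells, 8 of 9 tested were higher in goblet-gated than crypt-gated cells and none lower, among them Atoh1, the secretory lineage factor, with a log2 fold change of 5.66, Gfi1 at 6.15, Klf4 at 4.27 and Spdef, which drives goblet maturation, at 3.71. Of the enzymes and transporters of mucin glycosylation, 16 of 17 were higher, led by B3gnt7 at 5.09 and B3galt5 at 3.71. Of the secretory folding and granule genes, 14 of 15 were higher, led by Sytl2 at 6.31, a granule docking protein, and Kdelr3 at 4.93. Of other mucins and mucus proteins, 5 of 13 were higher and 3 lower, with Retnlb at 7.77 and the chloride channel Cftr at -2.11. These shares stand beside the 21.1% higher and 19.6% lower over all genes of that comparison.

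In adenoma-gated cells the lists are read beside 23.5% higher and 18.0% lower over all genes tested. Of 8 goblet transcription factors 3 were higher and 3 lower than in crypt-gated cells, with Atoh1 lower at -3.10, the intestinal factor Cdx2 lower at -1.97 and Klf4 higher at 2.01. Atoh1 stood at 0.361, 0.280, 0.253 and 0.723 CPM in adenoma-gated, 3.18, 1.67, 1.57 and 6.87 in crypt-gated and 159, 172, 135 and 121 in goblet-gated cells. Spdef stood at 18.0, 31.6, 19.98 and 20.4 in adenoma-gated cells, overlapping the crypt-gated levels of 12.7, 15.1, 15.3 and 21.0, and was not called. Of 16 glycosylation genes 2 were higher and 7 lower, with Fut2 at 3.12 and Chst4 at -4.83, and of 15 secretory genes 4 were higher and none lower. Of 14 other mucins and mucus proteins 2 were higher and 10 lower. The 2 were the gastric gel-forming mucins Muc5ac, at 4.70, and Muc6, at 2.59. Muc6 stood at 106, 378, 190.1 and 149.8 CPM in adenoma-gated and 5.31, 16.7, 51.3 and 47.3 in crypt-gated cells, with every adenoma-gated library above every crypt-gated one.

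In the other classes the list counts are given beside the share over all genes. In Paneth-gated cells 6 of 8 transcription factors, 6 of 14 glycosylation genes, 9 of 14 secretory genes and 3 of 13 other mucus genes were higher than in crypt-gated cells, and 1, 1, 0 and 5 were lower, against 12.6% higher and 10.3% lower over all genes. In enterocyte-gated cells 2 of 8, 6 of 15, 4 of 14 and 6 of 13 were higher and 5, 3, 6 and 4 lower, against 35.9% and 34.1%, so most of these counts lay near the share over all genes. In enteroendocrine-gated cells 3 of 7, 1 of 14, 3 of 13 and 2 of 11 were higher and 0, 0, 0 and 6 lower, against 11.3% and 14.1%. By genotype the lists held 2 calls by edgeR: Tff2 was lower in crypt-gated cells of the VApcMinL libraries, at -1.46 (adjusted p = 8.76e-07), and Muc5ac in Paneth-gated cells, at -3.28 (adjusted p = 0.0232). Single cells carried both: Muc5ac had 12, 1, 186 and 42 UMIs in Paneth-gated cells, of which 1 cell held 100, 100, 67.7 and 64.3%, and 1 cell held 26.7, 66.7, 56.6 and 76.7% of the Tff2 UMIs of crypt-gated cells.

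The genes whose level followed the mean of the 8 most closely were listed as a description. Over 31 sums of UMIs by library and class, which share libraries, Pearson's r of log2 CPM was 0.92 for Atoh1, 0.89 for C1galt1c1, the chaperone of the core O-glycan enzyme, and 0.89 for Rab27b, a granule GTPase. Slc12a8 followed at 0.88, Galnt7, which starts or extends O-glycans, at 0.87, Fer1l6 at 0.85 and Guca2a, the peptide guanylin, at 0.82, and Pdxdc1, Muc3a and Liph each stood at 0.80.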

How the data were processed

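The authors dissociated pooled adenomas and made 3′ single-cell libraries (10x Genomics, reagent kit 2 or 3). Per the labels' processing notes they used Cell Ranger 2.1.1 with an mm10 reference and Seurat 3.1.1. The deposited unit is UMI counts per gene and droplet, unfiltered, for 4 libraries. Levels, sums and tests were computed from these counts with Python 3.11.15, scanpy 1.11.5, R 4.3.3, edgeR 4.0.16 and DESeq2 1.42.0, and the scripts were tested on simulated data. The 8 genes and the gene lists were chosen with earlier results of these data known. Genes named besides the 8 are up to 4 per list, those with the largest change among called genes, and the 10 with the highest correlation among genes of at least 20 CPM.

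Barcodes with at least 2000 UMIs and at most 20% mitochondrial UMIs were kept. Gates used summed marker UMIs per 10000, with thresholds set after the data were seen: adenoma 3 with at least 3 markers detected, crypt 3 with at least 2 and under 1 of adenoma markers, enterocyte 100, Paneth 100, enteroendocrine 10 with 3, goblet 10 with 3, immune 30 and stromal 20. The goblet markers were Rep15, Bcas1, Klk1, Capn9, Tpsg1, Ern2, Foxa3 and Creb3l4. Barcodes in several gates were left out, which removes some doublets, and Scrublet's calls at 0.8% per 1000 barcodes were removed as an alternative. Sums per library and class of at least 10 cells were tested with edgeR's quasi-likelihood test (TMM scaling, filterByExpr, Benjamini-Hochberg over all genes, threshold 0.05), with the library as a block between classes and the kit as a block between genotypes. The replicate number marks the reagent kit, and deviations of same-kit adenoma-gated sums correlated at r = 0.135 over 12681 genes. Thinning drew 2000 UMIs per cell. Intervals are exact Clopper-Pearson intervals at 95%.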

Additional observations from a re-analysis of the deposited data

Results flagged for a closer look

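With all cells, Agr2 in Paneth-gated over crypt-gated cells moved in opposite directions by genotype. The log2 differences were 2.18 in ApcMin 1 and 0.39 in ApcMin 2 but -0.44 in VApcMinL 1 and -0.18 in VApcMinL 2, so that the mean of VApcMinL minus that of ApcMin was -1.59. This difference was not tested. Without the leading cells Agr2 stood at 2106, 573, 1351 and 1115 CPM in Paneth-gated and 711, 741, 683 and 975 in crypt-gated cells. Of the VApcMinL libraries only VApcMinL 1 was then lower in Paneth-gated cells.

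Tff3 in goblet-gated over crypt-gated cells stood apart in ApcMin 2, at 8.52 on the log2 scale, while the other 3 libraries lay between 6.27 and 6.29. Chance alone sets about 1 in 20 groups apart by this measure.

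With all cells, the difference between VApcMinL and ApcMin libraries had opposite signs in 2 classes for 3 of the 8 genes, in both kits. The share of all genes with such a pattern is not given here. The means over the kits are on the log2 scale, and none of the differences between classes was tested. For Muc2 it was 0.99 in adenoma-gated, 0.48 in crypt-gated and -2.79 in Paneth-gated cells, which gives 3.78 for adenoma minus Paneth and 3.27 for crypt minus Paneth. For Fcgbp it was 1.18 in adenoma-gated and -2.30 in Paneth-gated cells, a difference of 3.47. For Clca1 it was 2.32 in adenoma-gated, 0.42 in crypt-gated and -0.56 in enterocyte-gated cells, which gives 2.88 for adenoma minus enterocyte and 0.98 for crypt minus enterocyte. Without the leading cells, adenoma-gated Muc2 stood at 11.5, 25.7, 22.7 and 17.65 CPM and Clca1 at 0.724, 6.74, 3.89 and 2.79, lower in VApcMinL in kit 3. Crypt-gated Muc2, at 115, 28.6, 104 and 57.1, was then lower in VApcMinL in both kits. Fcgbp kept its opposite signs, at 20.1, 31.6, 28.5 and 32.5 in adenoma-gated and 169, 45.4, 619 and 239 in Paneth-gated cells.

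Barcodes that passed several gates were left out of every comparison, and they often held the mucus genes together. At least 4 of the 8 genes were detected after thinning in 36.0% of them in ApcMin 1, 58.1% in VApcMinL 1, 70.5% in ApcMin 2 and 62.8% in VApcMinL 2, which are 9 of 25, 25 of 43, 31 of 44 and 27 of 43 barcodes. Immune-gated cells of the same libraries gave 2.28, 4.40, 4.79 and 1.59%, and goblet-gated cells 100, 97.8, 100 and 97.7%. The goblet gate can be among the several gates, so a high share can follow from the gating. How many of these barcodes passed the goblet gate is not given here.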

How the results depend on the processing

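The 8 genes were higher in goblet-gated than in crypt-gated cells under every alternative tried. Over all classes, 372 of 457 alternative values of members kept their direction and their side of the threshold, 34 passed it newly, 20 no longer passed and 31 changed sign. By genotype, 138 of 205 were kept, 44 untested values moved beyond 1 SD of the libraries, 7 no longer passed, 1 passed newly and 15 changed sign. The causes were not tested beyond what each alternative's construction shows. Leaving out the leading cell of each class and library, and the gate thresholds, were chosen after seeing the data.

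Counts of genes called by genotype in crypt-gated cells, 64 with the main settings, were 15 with a mitochondrial limit of 10%, 10 with doubled gates, 23 without Scrublet's doublets, 4 with DESeq2, 4 with thinned cells and 6 without the leading cells. In Paneth-gated cells the 3 calls became 1 with a floor of 5000 UMIs, 0 with the 10% limit, 1 without Scrublet's doublets, 1 with DESeq2, 51 with no low-count filter, 0 with thinned cells and 0 without the leading cells. In enterocyte-gated cells the 1 call became 0 with doubled gates, 0 without Scrublet's doublets, 3 with DESeq2 and 25 with no filter. In goblet-gated cells the 7 calls became 3 with the 10% limit, 0 with DESeq2, 20 with no filter and 1 with thinned cells, and in adenoma-gated cells DESeq2 called 5 against 0. With no replicate block, in place of the kit pairing, 0 genes were called in crypt-gated, 0 in enterocyte-gated, 0 in Paneth-gated and 1 in goblet-gated cells, and adenoma-gated cells stayed at 0, while 22 were called in enteroendocrine-gated cells, where the block allowed no test. Leaving out a library from a genotype fit left no residual degree of freedom, and doubled gates left too few Paneth-gated cells.

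Against crypt-gated cells, thinned cells gave 1370 calls in adenoma-, 298 in Paneth-, 4087 in enterocyte-, 688 in enteroendocrine- and 1146 in goblet-gated cells, with fewer UMIs by construction. DESeq2 gave 1422 in Paneth- and 1415 in enteroendocrine-gated cells, and in the latter the floor of 5000 UMIs gave 895 and the 10% limit 1135. Leaving out 1 library gave 1179 to 1750 calls in Paneth-gated and 1133 to 2322 in enteroendocrine-gated cells. For the interaction it gave 0 to 133 calls, the highest without VApcMinL 1. Without thinning, the difference in the share of adenoma-gated cells with 4 or more genes was -2.38 percentage points, opposite to the thinned one.

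Members whose log2 difference changed sign were the following. Without the leading cells these were Agr2 in adenoma-gated (0.074), Zg16 in Paneth-gated (1.77), Muc2 in enterocyte-gated (0.14), Zg16 (0.26) and Muc13 (-0.055) in enteroendocrine-gated cells, and by genotype in crypt-gated cells Muc2 (-1.37), Tff3 (-0.0086) and Spink4 (-0.92). With doubled gates these were Tff3 in enterocyte-gated (0.33) and Zg16 in enteroendocrine-gated cells (0.048), and by genotype in crypt-gated cells Muc2 (-1.97), Fcgbp (-1.40), Tff3 (-1.60), Spink4 (-2.92) and Agr2 (-0.29). Without Scrublet's doublets these were Zg16 (0.39) and Clca1 (-0.59) in Paneth-gated and Zg16 (0.56) in enteroendocrine-gated cells, and by genotype in crypt-gated cells Muc2 (-0.67), Spink4 (-0.25) and Agr2 (-0.15). With thinned cells these were Zg16 in Paneth-gated (1.13) and Muc2 (0.32), Zg16 (0.92) and Agr2 (0.083) in enteroendocrine-gated cells, and by genotype Spink4 in adenoma-gated (-0.084) and Muc2 (-0.71) and Spink4 (-0.020) in crypt-gated cells. With the 10% limit these were Zg16 in Paneth-gated (0.15) and Muc13 in enteroendocrine-gated cells (-0.17), with the floor of 5000 UMIs Fcgbp (-0.0075) and Clca1 (-1.45) in enteroendocrine-gated cells, and with no filter Muc13 there (-0.067). With no replicate block Spink4 by genotype in crypt-gated cells was -0.073.

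Leaving out 1 library moved the log2 difference over crypt-gated cells of Agr2 in adenoma-gated cells from -0.73 to 0.0077, and in Paneth-gated cells that of Zg16 from -0.99 to 0.40, Tff3 from -0.0025 to 1.36 and Agr2 from -0.058 to 0.77. Zg16 in enterocyte-gated cells ran from -0.17 to 1.24. In enteroendocrine-gated cells, with 2 libraries left, Muc2 ran from -3.08 to 0.43, Fcgbp from -0.16 to 2.38, Zg16 from -2.45 to 1.62, Clca1 from -1.70 to 1.56, Agr2 from -0.89 to 0.51 and Muc13 from -0.19 to 0.23. Few Paneth-gated and enteroendocrine-gated cells, between 12 and 46 in a library used, limit these values.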

Other observations

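Agr2 was unevenly spread over adenoma-gated cells, and the 10% of cells with the most Agr2 per UMI were described after its values were seen, so the following are values with no test. These were 35, 51, 31 and 160 cells, with median UMIs of 22467, 18009, 32347 and 23616 against 20997, 17788, 31622 and 25112 in the other adenoma-gated cells. Agr2 stood at 2907, 10015, 4963 and 3348 CPM in them. Muc6, the gel-forming mucin of gastric glands, stood at 289.8, 1294, 539 and 533 there and at 85.2, 284, 143 and 106 in the others. Tff2, the trefoil peptide that accompanies Muc6 in the stomach, stood at 459, 1330, 95.6 and 404 against 19.0, 217, 39.1 and 8.31. Both were higher in the Agr2-rich 10% in every library. Spdef stood at 57.5, 82.9, 63.3 and 47.7 against 13.6, 26.3, 14.1 and 17.4, and Creb3l1, a secretory pathway factor, at 52.7, 64.9, 45.7 and 32.8 against 14.0, 14.0, 18.2 and 14.2, also higher in every library. Muc2 stood at 27.5, 26.0, 19.7 and 88.7 against 11.6, 52.2, 23.4 and 17.1, not higher in VApcMinL 1 and ApcMin 2. In ApcMin 1, Tff3 and Spink4 stood at 277 and 435 in the Agr2-rich 10%, against 105 and 127 in all adenoma-gated cells. Clca1 there stood at 0 against 0.721. Muc5ac, Tff1, Foxa1 and Fut2 were also looked at in these cells and are not given here.

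The 2, 12, 3 and 15 adenoma-gated cells with at least 4 of the 8 genes after thinning held Spdef at 102, 51.8, 60.4 and 30.9 CPM, against 17.6, 31.1, 19.3 and 20.3 in the other adenoma-gated cells. The goblet gate's own markers stood at 357, 231, 161 and 276 against 81.3, 166, 107 and 103 CPM, summed over the markers. The adenoma gate's markers stood at 382, 813, 528 and 825 in these cells against 646, 2174, 1986 and 743, lower in all but VApcMinL 2. Those of the enterocyte gate stood at 586, 1251, 905 and 831 in these cells against 636, 1203, 862 and 501, higher in all but ApcMin 1. Atoh1 UMIs in these cells numbered 0, 0, 0 and 12, and Scrublet called 0, 1, 0 and 2 of them doublets.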
